A study of Mus musculus with 2 samples.

Results

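Kupffer barcodes in which Marco RNA was detected and Cd207 and Fabp7 RNA were not made up 268 of the 1839 Kupffer barcodes of the early lesions, or 14.6% (exact binomial 95% interval 13.0 to 16.3%). They were 11.2% of the 2399 early barcodes kept and came from a series of 3477 barcodes in all. The members are called Marco-only Kupffer barcodes here. A Kupffer barcode had at least 3 UMIs (counted RNA molecules) of Clec4f, Vsig4, Cd5l and Marco together, and more of these than of Gpnmb, Mmp12, Itgax and H2-M2. A Marco-only barcode also had at least 1 Marco UMI, no Cd207 or Fabp7 UMI, and fewer than 4 UMIs of the 6 hepatocyte genes Rgn, Pck1, Hpd, Agxt, Oat and Mat1a. The members were thus chosen by their own UMI counts of these genes, so the levels below describe the class and no test was made.

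The study sorted YFP+ liver cells by flow cytometry after enzymatic digestion of livers or lesions of the Rb family Triple Knock Out mouse, and sequenced their RNA with the 10x 3' v3 droplet method. YFP marks cells in which Cre has recombined the floxed alleles, and the sources used here do not name the promoter that drives Cre. The macroscopic lesions gave 1 library and the early lesions gave 1 library from a pool of 3 mice. Both are untreated and come from the knockout model, so there was no wild type, age was not given, and no map tied cells to mice. The macroscopic library had 3 Kupffer barcodes and 0 Marco-only barcodes among the 124 kept, which allows a share of up to 2.42% (3 counts of the total), so the class was described in the early library alone. No barcode was shared between the libraries.

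Kupffer cells are the resident macrophages of the liver sinusoids. They capture bacteria, particles and ageing red cells from the blood, break down haem and return its iron to the circulation. Marco, a class A scavenger receptor, binds bacteria and particles. Vcam1 is a ligand for leukocyte integrins, Hmox1 is the haem oxygenase that opens the haem ring, Slc40a1 (ferroportin) exports iron, and Dmpk is a serine/threonine kinase. Cd207 (langerin) is a C-type lectin, and Fabp7 is a carrier of fatty acids.

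In the build mm10 Marco lies on chromosome 1 (chr1:120474538-120505024, minus strand). Cd207 (chr6:83671215-83677857, minus strand) and the Kupffer lectin Clec4f (chr6:83644542-83656187, minus strand) lie close together on chromosome 6. Fabp7 is on chromosome 10 (chr10:57784881-57788450, plus strand). Slc40a1 is at chr1:45908068-45926523 (minus strand), Vcam1 at chr3:116109949-116129688 (minus strand), Hmox1 at chr8:75093621-75100589 (plus strand) and Dmpk at chr7:19083849-19093821 (plus strand).

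The promoters of the 3 genes whose presence or absence defines the class are shown from RefSeq (GRCm38.p6), from 250 bases before to 50 bases after the gene start, read 5′ to 3′ on the gene's strand. They are chr1:120504975-120505274 for Marco (minus strand), chr6:83677808-83678107 for Cd207 (minus strand) and chr10:57784673-57784972 for Fabp7 (plus strand). Capitals mark the letters GAGGAA (the core bound by PU.1, a macrophage factor) or TGGGAA (the core bound by RBPJ, the Notch factor) on either strand, and the motifs did not overlap.
Marco: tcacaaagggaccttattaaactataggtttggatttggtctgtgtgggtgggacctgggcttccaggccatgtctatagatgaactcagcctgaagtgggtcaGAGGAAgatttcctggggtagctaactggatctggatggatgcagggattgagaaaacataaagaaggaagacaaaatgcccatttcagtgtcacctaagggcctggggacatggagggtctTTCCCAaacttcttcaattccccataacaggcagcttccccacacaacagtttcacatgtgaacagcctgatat
Cd207: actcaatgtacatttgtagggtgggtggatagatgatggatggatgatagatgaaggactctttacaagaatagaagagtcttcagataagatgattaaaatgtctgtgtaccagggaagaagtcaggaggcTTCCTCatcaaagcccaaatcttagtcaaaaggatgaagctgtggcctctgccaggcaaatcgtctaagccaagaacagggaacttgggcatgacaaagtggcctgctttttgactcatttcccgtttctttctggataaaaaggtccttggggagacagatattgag
Fabp7: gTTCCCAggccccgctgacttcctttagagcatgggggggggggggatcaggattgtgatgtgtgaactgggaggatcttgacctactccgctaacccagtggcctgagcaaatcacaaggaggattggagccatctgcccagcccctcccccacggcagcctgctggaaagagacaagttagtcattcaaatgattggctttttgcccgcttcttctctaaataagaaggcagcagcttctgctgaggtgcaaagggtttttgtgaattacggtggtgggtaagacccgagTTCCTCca
Each promoter held 1 GAGGAA match. Marco and Fabp7 held 1 TGGGAA match each and Cd207 held 0. Of 32851 promoters in RefSeq, 28.3% held GAGGAA and 25.6% held TGGGAA, so a match is common and describes letters only.

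Marco-only barcodes were shallow. They had a median of 1632 UMIs (quartiles 1290.5 and 2222, range 1007 to 17790) and 899 genes, against 2919 UMIs (quartiles 1811 and 4790.5, range 1001 to 29173) and 1348 genes in the 1571 other Kupffer barcodes. Mitochondrial UMIs had a median share of 9.70% in Marco-only barcodes and 8.46% in the others. A barcode with few UMIs can miss Cd207 and Fabp7 that the cell holds, so the class was followed over depth among the 1660 Kupffer barcodes with fewer than 4 hepatocyte UMIs.

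The Marco-only share was 33.1% (112 of 338 barcodes, 28.1 to 38.4%) at 1000 to under 1500 UMIs and 25.4% (72 of 284, 20.4 to 30.8%) at 1500 to under 2000 UMIs. It was 14.7% (54 of 368, 11.2 to 18.7%) at 2000 to under 3000 UMIs, 4.80% (17 of 354, 2.82 to 7.58%) at 3000 to under 5000 UMIs, and 4.11% (13 of 316, 2.21 to 6.93%) at 5000 UMIs or more. The share was therefore lower in each deeper bin, and the last 2 bins were within counting error of each other. From the shallowest to the deepest bin, barcodes with a Fabp7 UMI made up 50.3% and 92.1%, those with a Cd207 UMI 21.0% and 65.5%, and those with a Marco UMI 74.9% and 86.7%.

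**Figure D1:**
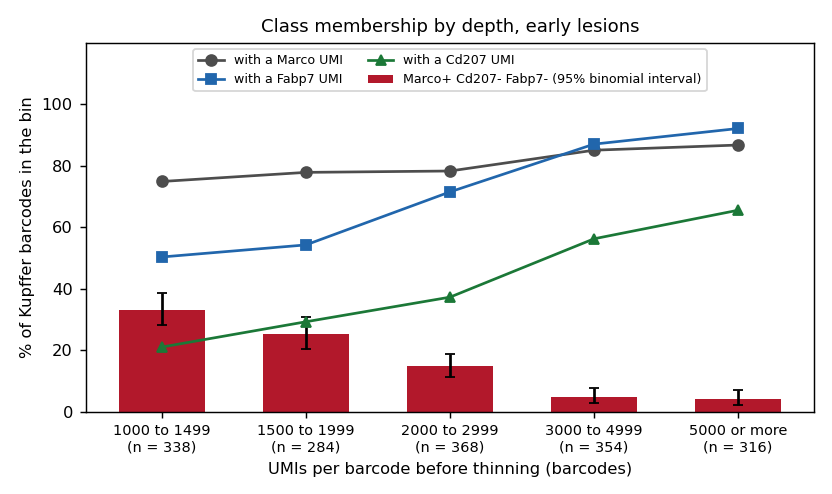
Percentage of Kupffer barcodes with low hepatocyte RNA (y axis) in 5 bins of UMIs per barcode (x axis). Bars show Marco-only barcodes with exact binomial 95% intervals, and lines show barcodes with a Marco, Fabp7 or Cd207 UMI. The bars go down to 4.11% in the deepest bin, where 92.1% of barcodes have Fabp7.

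Removing UMIs at random from deep barcodes also gave Marco-only barcodes. Of the 670 barcodes with at least 3000 UMIs, 30 (4.48%, 3.04 to 6.33%) were Marco-only by all their UMIs. When each was thinned to 1000 UMIs, 175 (26.1%, 22.8 to 29.6%) looked Marco-only, and 148 of these 175 had Cd207 or Fabp7 at full depth. Over all 1660 barcodes the numbers were 268 (16.1%) at full depth and 503 (30.3%) at 1000 UMIs.

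The UMIs of each barcode were also split at random into 2 equal sets, with the rule read from one set and the levels from the other. By one set 449 barcodes were Marco-only, of which 247 were so by all UMIs. In the other set 193 of the 449 (43.0%, 38.4 to 47.7%) had a Cd207 or Fabp7 UMI. Cd207 nonetheless stood at 136 CPM in the 449 barcodes, against 392 CPM in the 1381 others, a ratio of 0.348 (0.273 to 0.438). Fabp7 stood at 400.4 and 888 CPM, a ratio of 0.451 (0.392 to 0.517). The absence read in one set thus went with lower but not absent levels in the UMIs that the rule had not used. Over 1570 genes measured this way, 35 (2.23%) were at least 1.5-fold higher in the Marco-only barcodes and 21 (1.34%) lower. These sets were summed without thinning, so deeper barcodes weigh more. The median depths were 1820 UMIs in the Marco-only barcodes by one set and 3026 in the others, and the part of depth in these ratios was not tested.

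Near the limits of the rule, 28 Marco-only barcodes (10.4%) had exactly 1 Marco UMI, 51 had 2 or 3, and 189 (70.5%) had 4 or more, with a median of 6 and a highest count of 96. The 4 Kupffer genes had a median of 32.5 UMIs per member, and none sat at the minimum of 3. Just outside, 249 Marco+ barcodes with low hepatocyte RNA were kept out by a single UMI of Cd207 or Fabp7, which is nearly as many as the class itself. Hepatocyte RNA was at its limit of 3 UMIs in 14 members, and 4 further barcodes missed the class with 4 such UMIs. An Alb UMI was found in 82 members (30.6%).

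Further levels come from barcodes thinned to 1000 UMIs each and summed, as CPM (UMIs of a gene scaled to the total of the sum). Levels from the split sets of UMIs are the exception, since those sets were summed without thinning. The 268 Marco-only barcodes gave 268000 UMIs, in which 1 UMI is 3.73 CPM, and the 1571 others gave 1571000 UMIs, in which 1 UMI is 0.637 CPM. Because the others remained deeper before thinning, they were also weighted to the depth bins of the members, a step chosen after seeing the data. Intervals are exact 95% intervals for counting error only and do not cover the spread between mice or between barcodes.

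Of the 5 markers that label the class, Vcam1, Hmox1, Slc40a1 and Dmpk lie outside the rule. The markers were named with the class from these same data, so their levels describe it and are no independent check. Marco, which chose the members, stood at 4761 CPM (4504 to 5030) in Marco-only barcodes and 2913 CPM (2829 to 2998) in the others. Per barcode the thinned Marco count had a median of 4 in Marco-only barcodes (quartiles 2 and 6, highest 30) and of 1 in the others (quartiles 0 and 4, highest 22). At least 4 Marco UMIs were found in 50.4% of Marco-only barcodes and 31.5% of the others, so the ranges overlapped widely.

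Vcam1 stood at 1866 CPM (1706 to 2037) in Marco-only barcodes and 1440 CPM (1382 to 1501) in the others, a ratio of 1.30 (1.17 to 1.43). With the others weighted to the same depths its ratio was 1.19. In the set of UMIs that the rule had not used, which was not thinned, Vcam1 had 1766 CPM in Marco-only barcodes and 1261 CPM in the others. That ratio was 1.40 (1.30 to 1.503) and was not matched for depth. In the others of the thinned comparison Vcam1 had 1643 CPM in the shallowest depth bin and 1143 CPM in the deepest. The part of depth in the ratio of 1.40 was not tested. Among the 4 markers outside the rule Vcam1 had the highest ratio at matched depths and in the unused UMIs.

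The iron exporter Slc40a1 stood at 2761 CPM (2566 to 2968) in Marco-only barcodes and 2319 CPM (2244 to 2395) in the others, a ratio of 1.19 (1.099 to 1.29). Hmox1 stood at 2701 CPM (2508 to 2906) and 2370 CPM (2295 to 2448), a ratio of 1.14 (1.05 to 1.23). Dmpk stood at 507 CPM (426 to 600.3) and 393 CPM (362 to 425), a ratio of 1.29 (1.07 to 1.56). At matched depths these ratios were 1.13, 1.09 and 1.07. In the unused set of UMIs, neither thinned nor matched for depth, they were 1.04 (0.979 to 1.11), 1.12 (1.05 to 1.18) and 1.17 (1.01 to 1.35). None of the 4 markers reached 1.5-fold, and their ranges over barcodes overlapped between the groups.

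The general Kupffer genes of the rule were nearly equal. Clec4f, a lectin found on mouse Kupffer cells, had 3672 CPM in Marco-only barcodes and 3919 CPM in the others (ratio 0.937, 0.875 to 1.002). Vsig4, a receptor for complement fragments, had 3175 and 3148 CPM (ratio 1.01, 0.937 to 1.09). Cd5l, a secreted inhibitor of macrophage apoptosis, had 8149 and 7620 CPM (ratio 1.07, 1.021 to 1.12). A list of 8 Kupffer markers summed to 19459 CPM in Marco-only barcodes and 18992 CPM in the others, with all 8 detected. This list includes Clec4f, Vsig4 and Cd5l, by which both groups were chosen, so its sums are in part set by the rule.

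At 1000 UMIs the share of Marco-only barcodes with a UMI was 92.5% for Marco, 89.6% for Slc40a1, 79.1% for Vcam1, 71.3% for Hmox1 and 36.2% for Dmpk. In the other Kupffer barcodes these shares were 64.7%, 84.7%, 66.2%, 65.9% and 30.6%. As a measure of free RNA, 66 T cell barcodes (median 2566 UMIs before thinning, taken without Kupffer UMIs, so with Marco at 0 by choice) had a UMI of Slc40a1 in 0%, of Vcam1 in 0%, of Hmox1 in 1.52% and of Dmpk in 1.52%. That choice can also lower the shares of the other genes, and 3 counts of 66 set the limit for a share of 0 at 4.55%. In 104 bile-duct barcodes, not chosen by Kupffer genes, the shares were 0% for Marco (3 counts allow up to 2.88%), 4.81% for Slc40a1, 7.69% for Vcam1, 0.962% for Hmox1 and 1.92% for Dmpk. These barcodes had a median of 10814 UMIs, and before thinning 8.65% held a Marco UMI, 60.6% Slc40a1 and 59.6% Vcam1. For Slc40a1, Vcam1, Hmox1 and Dmpk the thinned shares were higher in both Kupffer groups than in either set. Before thinning a Vcam1 UMI was found in 88.4% of Marco-only barcodes and 88.0% of Kupffer barcodes with Fabp7, an Hmox1 UMI in 82.1% and 88.2%, and a Dmpk UMI in 55.2% and 64.2%, with the deeper class level or ahead. Of Marco-only barcodes 57 (21.3%) had a UMI of all of Hmox1, Slc40a1, Vcam1 and Dmpk, 122 (45.5%) of 3 of them and 5 (1.87%) of none. In the other Kupffer barcodes all 4 were found in 214 (13.6%) and none in 53 (3.37%).

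The members varied more in some genes than in others. Hmox1 had a median of 1 thinned UMI per member and a highest count of 20, and its variance over members was 4.33 times its mean. Cd74 had the same median of 1, a highest count of 22 and a variance 4.33 times its mean, and for Marco that value was 4.92. Slc40a1 and Vcam1 were less spread, with variances 1.44 and 1.46 times their means and highest counts of 11 and 9, and Clec4f and Cd5l lay between, at 2.21 and 2.09 times. All of these exceed counting error, so the counting intervals cover less than the spread between barcodes.

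**Figure D2:**
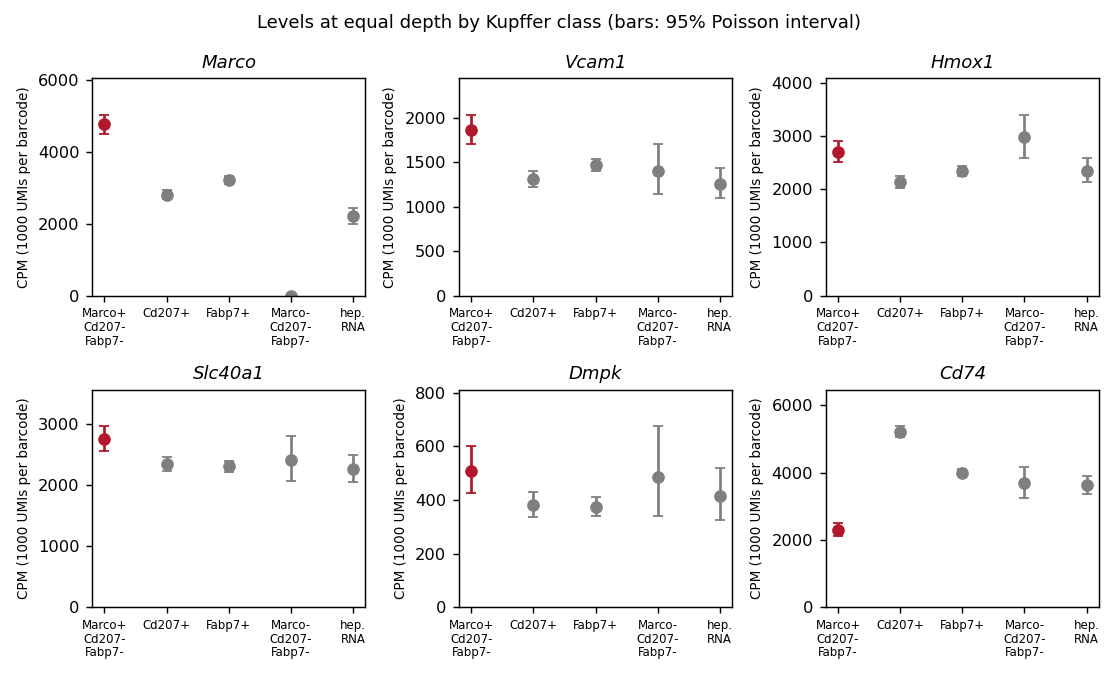
CPM at 1000 UMIs per barcode (y axis, exact Poisson 95% intervals) of 6 genes in Marco-only barcodes (red, left) and in other Kupffer barcodes (grey): with Cd207, with Fabp7 (the 2 overlap), with none of Marco, Cd207 and Fabp7, and with hepatocyte RNA. Vcam1 is 1866 CPM in Marco-only barcodes and Cd74 is lowest there, at 2302 CPM.

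Against single classes of Kupffer barcodes the same order held for Vcam1. It had 1866 CPM in the Marco-only class, against 1311 CPM in the 697 barcodes with Cd207, 1470 CPM in the 1186 with Fabp7 and 1403 CPM (1143 to 1704) in the 72 with none of the 3 genes. Hmox1 differed in this respect. It had 2701 CPM in the Marco-only class, against 2972 CPM (2587 to 3398) in barcodes with none of the 3 genes, which have a like depth (median 1626 UMIs). The Marco-only and triple-negative levels of Hmox1 were within counting error, as were those of Dmpk (507 and 486 CPM) and Slc40a1 (2761 and 2417 CPM).

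The level of Marco by depth is a description, since members must hold a Marco UMI and the others need not. In members with 1000 to under 1500 UMIs Marco had 4991 CPM, against 2784 CPM in other Kupffer barcodes of that depth. In the 17 members with 3000 to under 5000 UMIs it had 2647 CPM (1931 to 3542), against 2822 CPM, and in the 13 with 5000 UMIs or more 3000 CPM (2133 to 4101), against 3154 CPM. In both of these deeper bins Marco was within counting error of the others.

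The 13 deepest members also differed in Kupffer genes. Clec4f had 1692 CPM (1061 to 2562) in them, against 3876 CPM in other Kupffer barcodes of that depth, and the lysozyme gene Lyz2 had 18769 and 9135 CPM. Of these 13 barcodes 4 had at least 2 thinned UMIs of Saa3 and Fn1 together, a set described with the other observations. Without all 7 members that met this condition, 69 genes were at least 1.5-fold higher and 66 lower, and the Vcam1 ratio was again 1.30.

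Over all genes the class was close to the other Kupffer barcodes. Measured genes had at least 100 CPM in 1 sum and 20 UMIs in both sums together, with genes of the rule left out. A gene at 100 CPM in 1 sum alone thus entered through the group where it was higher. Of 1663 genes measured, 72 (4.33%) were at least 1.5-fold higher in Marco-only barcodes. There were 65 (3.91%) at least 1.5-fold lower, and the median log2 ratio was 0.04. Scaling by the median of gene ratios gave 49 higher and 89 lower. Against the other barcodes with low hepatocyte RNA, 68 genes (4.1%) were higher and 60 (3.62%) lower. With the others weighted to the members' depths it was 52 higher (3.13%) and 45 lower (2.71%), of which 33 and 32 were called in both. The called genes were of low level, with medians of 37 member UMIs among those higher and 24 among those lower. A second random draw of the thinning called 74 and 60 genes, and 27 of the 72 and 28 of the 65 were in both draws. Thinned to 2000 UMIs, 16 of the 72 and 19 of the 65 were called again, and with the rule and the levels from separate sets of UMIs 6 and 7 were.

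Among the 284 genes with at least 500 CPM in 1 sum, 0 were 1.5-fold higher in Marco-only barcodes and 8 were lower. These 8, named after their values were seen, were Hbb-bs, Cd74, Lgals3, Gapdh, Rps2, Pltp, Rpl11 and Ubb. Cd74 and Rps2 were the ones above 1000 CPM in Marco-only barcodes.

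**Figure D3:**
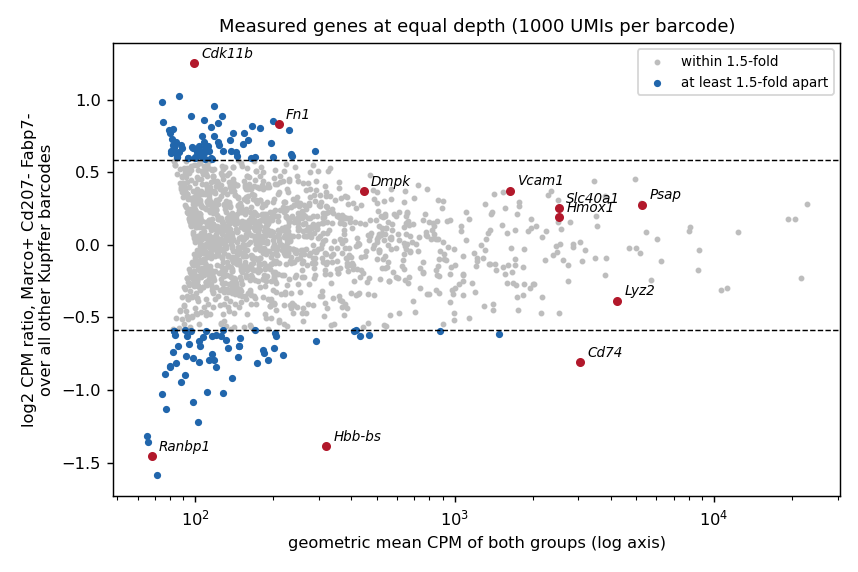
Log2 CPM ratio of Marco-only over all other Kupffer barcodes (y axis) against the geometric mean CPM (log x axis) for the measured genes, with dashed lines at 1.5-fold. Genes past the lines (blue) lie mostly at low levels, and the markers Vcam1, Slc40a1, Hmox1 and Dmpk lie between the lines.

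The 12 genes with the highest ratios rested on few UMIs. Cdk11b, a kinase of transcription and splicing, led with 41 UMIs or 153 CPM (110 to 208) in Marco-only barcodes and 64.3 CPM (52.4 to 78.1) in the others, a ratio of 2.38 (1.61 to 3.45). Hist1h1c, a linker histone, had 269 and 149 CPM (ratio 1.80, 1.37 to 2.36), and the chaperonin subunit Cct8 had 220.1 and 125 CPM (ratio 1.76, 1.30 to 2.37). The signalosome subunit Cops4 had 164 and 84.7 CPM, and the ribosomal RNA transcription factor Ubtf 146 and 80.2 CPM. Ccndbp1, Nabp1, Mepce, Smim7, Atg2a and Csnk1d lay between ratios of 1.79 and 2.04. Fn1 (fibronectin) had a ratio of 1.78, but 19 of its 75 member UMIs came from 1 barcode, without which the ratio was 1.33. Without the other barcode with the most Fn1 UMIs (26) it was 1.99, and at matched depths 3.16.

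Cdk11b did not keep its direction at greater depth. Its ratio was 0.704 when barcodes were thinned to 2000 UMIs and 0.717 among barcodes with at least 2000 UMIs, 500 genes and at most 10% mitochondrial UMIs.

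At the other end was Bcl2a1b, an inhibitor of apoptosis with near-identical copies whose reads can be hard to tell apart. It had 11 UMIs or 41.0 CPM (20.5 to 73.4) in Marco-only barcodes and 123 CPM (107 to 142) in the others. Its ratio was 0.332 (0.163 to 0.608), and 1.01 at 2000 UMIs. Ranbp1, of nuclear transport, had 41.0 and 113 CPM, and Capg, which caps actin filaments, 41.0 and 102 CPM. The respiratory genes Cox7b and Atp5g1 had 67.2 and 157 CPM and 78.4 and 159 CPM. Ltc4s, the leukotriene synthase, had 52.2 and 106 CPM, and the chemokine gene Cxcl14 89.6 and 181 CPM. Bin2, Rbm25 and Anapc11 had ratios of 0.456, 0.473 and 0.519.

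The globin genes Hbb-bs and Hba-a1 were the exception in kind. Hbb-bs had 198 CPM in Marco-only barcodes and 518 CPM in the others, yet 50 of its 53 member UMIs came from 1 barcode and 577 of its 813 other UMIs from 1 barcode. Its ratio of 0.382 became 0.0217 without that member barcode and 1.32 without that other barcode. A single barcode in each group thus held most of its UMIs.

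Among genes of antigen presentation by MHC class II, Cd74 was past 1.5-fold lower in Marco-only barcodes. Of 13 listed genes 6 were measured, all 6 had a ratio below 1, and 1 was past 1.5-fold, where 3.91% of all measured genes were. The median log2 ratio was -0.41, against 0.04 over all genes. Cd74, the invariant chain that escorts class II molecules, had 2302 CPM (2124 to 2491) in Marco-only barcodes and 4034 CPM (3936 to 4135) in the others, a ratio of 0.571 (0.524 to 0.620). The class II chains H2-Aa and H2-Ab1 had 1198 and 1638 CPM and 1537 and 1972 CPM, with log2 ratios of -0.45 and -0.36. H2-DMa, which helps peptide loading, had 220.1 and 304 CPM.

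The class II difference was smaller at matched depths. Cd74 was higher in each deeper bin of the other Kupffer barcodes, and in Marco-only barcodes higher from 2000 UMIs on than below. Its CPM in Marco-only and other Kupffer barcodes was 1634 and 2249 at 1000 to under 1500 UMIs, 1944 and 2671 at 1500 to under 2000 UMIs, and 3574 and 3598 at 2000 to under 3000 UMIs. It was 3176 and 4649 at 3000 to under 5000 UMIs and 3615 and 5826 at 5000 UMIs or more. Marco-only barcodes were thus lower within 4 of the 5 depth bins and level in the middle one. In the deepest bin 4 of the 13 members had at least 2 thinned UMIs of Saa3 and Fn1 together. All 7 members that met this condition had Cd74 at 0 CPM. The Cd74 difference of the deepest bin without these barcodes was not tested. With the others weighted to the members' depths the ratio of Cd74 was 0.778, the median log2 ratio of the list was -0.20, and none of its genes was past 1.5-fold.

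The level of Marco, rather than the class, gave a comparison that was balanced for depth. The 1660 Kupffer barcodes with low hepatocyte RNA were divided, after seeing the data, by thinned Marco UMIs into 506 barcodes with 0, 242 with 1, 321 with 2 or 3 and 591 with 4 or more. Their median depths before thinning were 2565, 2553.5, 2494 and 2502 UMIs. Cd74 had 5494 CPM (5292 to 5702) at 0 Marco UMIs, 3653 CPM at 1, 3308 CPM at 2 or 3, and 2675 CPM (2545 to 2810) at 4 or more. At 4 or more over 0 its ratio was 0.487 (0.457 to 0.518). Within the 5 depth bins this ratio lay between 0.393 and 0.540.

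H2-Aa and H2-Ab1 were in the same order over the 4 Marco levels, and H2-DMa was highest at 0 without an order among the rest. H2-Aa had 1144 CPM at 4 or more Marco UMIs and 2328 CPM at 0, a ratio of 0.491 (0.446 to 0.541). H2-Ab1 had 1492 and 2682 CPM (ratio 0.557, 0.511 to 0.606), and H2-DMa 250.4 and 358 CPM (ratio 0.700, 0.560 to 0.875). Cd207 had 205 and 409 CPM, a ratio of 0.5005 (0.397 to 0.629), so langerin RNA was lower where Marco was high. Fabp7 had 702 and 769 CPM (ratio 0.913, 0.793 to 1.05), within counting error of equal levels. Within the depth bins the Cd207 ratio lay between 0.317 and 0.672. Its interval included equal levels at 1000 to under 1500 UMIs (0.356 to 1.26) and at 3000 to under 5000 UMIs (0.398 to 1.10). The rule joins the absence of both genes, but over all depths only Cd207 was graded with Marco here beyond counting error.

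Vcam1 ran the other way. It had 1251 CPM (1155 to 1352) at 0 Marco UMIs, 1343 CPM at 1, 1623 CPM at 2 or 3 and 1792 CPM at 4 or more. The ratio at 4 or more over 0 was 1.43 (1.30 to 1.58), and in the depth bins it lay between 1.06 (3000 to under 5000 UMIs, 0.852 to 1.32) and 1.82 (1000 to under 1500 UMIs, 1.46 to 2.28). The lysosomal protease gene Lgmn had 5083 CPM at 4 or more and 3909 CPM at 0 (ratio 1.30, 1.23 to 1.38). By depth bin this ratio lay between 1.04 (5000 UMIs or more, 0.883 to 1.24) and 1.39 (2000 to under 3000 UMIs, 1.23 to 1.57). Over all depths Hmox1 (ratio 1.06, 0.976 to 1.14) and Slc40a1 (1.08, 0.9998 to 1.17) were nearly level across Marco. By depth bin Hmox1 lay between 0.778 (2000 to under 3000 UMIs, 0.658 to 0.920) and 1.36 (1500 to under 2000 UMIs, 1.12 to 1.65). Within the same bins Slc40a1 lay between 0.946 (3000 to under 5000 UMIs) and 1.24 (1500 to under 2000 UMIs, 1.03 to 1.49). C1qa, a chain of complement component C1q, had a ratio of 0.971 (0.918 to 1.03) over all depths.

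**Figure D4:**
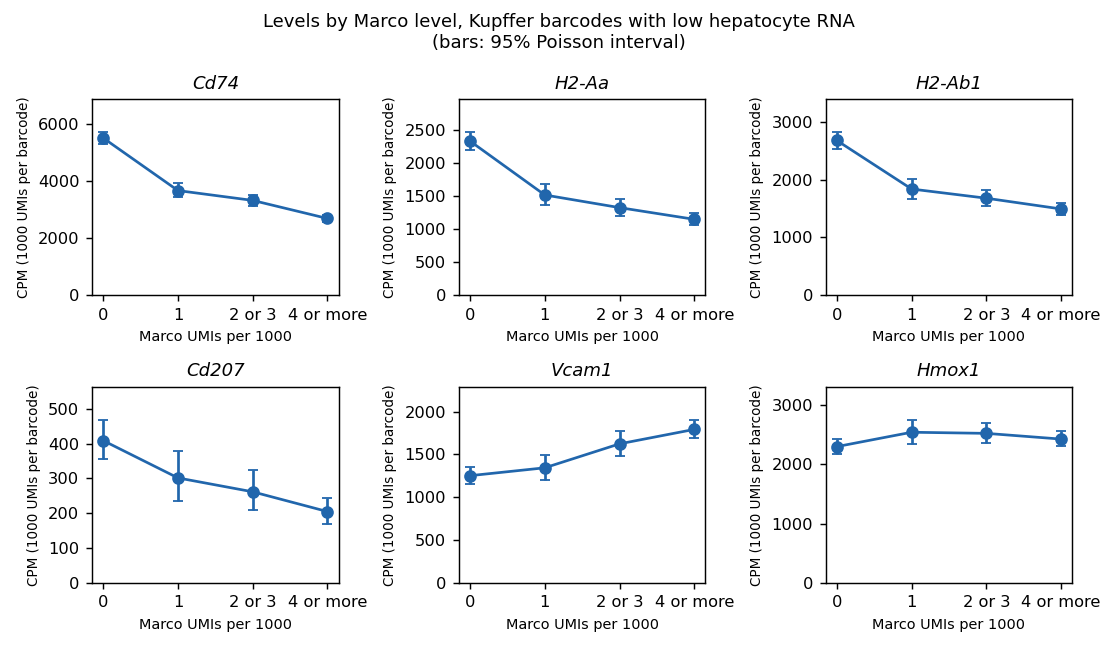
CPM at 1000 UMIs per barcode (y axis, exact Poisson 95% intervals) of 6 genes in Kupffer barcodes with low hepatocyte RNA, by thinned Marco UMIs per barcode (x axis). Cd74, H2-Aa, H2-Ab1 and Cd207 are lower with more Marco, Vcam1 is higher (1251 to 1792 CPM), and Hmox1 is nearly level.

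Within the Marco-only class the ratio of Cd74 was nearer to 1. By the rule every member holds a Marco UMI before thinning, so the group with 0 or 1 thinned UMIs holds no barcode without Marco. Depth was not balanced either. Among members Marco had 4991 CPM in the shallowest depth bin and 3000 CPM in the deepest, and Cd74 had 1634 and 3615 CPM. The part of both limits in the ratios below was not tested. The 135 members with 4 or more thinned Marco UMIs had 2111 CPM of Cd74, against 2698 CPM in the 63 members with 0 or 1, a ratio of 0.782 (0.645 to 0.952). H2-Aa had a ratio of 0.676 (0.517 to 0.886), Clec4f 0.821 (0.706 to 0.956) and Lgmn 1.32 (1.154 to 1.51). For Vcam1 it was 0.945 (0.759 to 1.18), so among the members themselves Vcam1 was not seen to differ with Marco at this depth. In the other barcodes with low hepatocyte RNA the same division gave 1.45 (1.32 to 1.60) for Vcam1 and 0.557 (0.522 to 0.594) for Cd74.

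At equal Marco, Cd74 was again lower in the class and Vcam1 was within counting error of the others. Among barcodes with 4 or more thinned Marco UMIs, 135 Marco-only barcodes had 2111 CPM of Cd74, against 2842 CPM in 456 others with low hepatocyte RNA, a ratio of 0.743 (0.651 to 0.845). Vcam1 had 1874 and 1768 CPM (ratio 1.06, 0.917 to 1.22), and Slc40a1 2756 and 2331 CPM (1.18, 1.05 to 1.33). Lgmn had 6274 and 4730 CPM (1.33, 1.22 to 1.44), and Fcer1g, the signalling chain of Fc receptors, 1748 and 2531 CPM (0.691, 0.598 to 0.795). The others were not matched for depth in this comparison.

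Genes of the Kupffer programme outside the rule were measured for 23 of 24 listed genes, and 0 were past 1.5-fold in either direction, with a median log2 ratio of 0.13. Timd4, a receptor for dying cells, had 317 and 276 CPM in Marco-only and other barcodes. Spic, the factor of iron-recycling macrophages, had 160 and 122 CPM, and Csf1r, the growth factor receptor of macrophages, 1075 and 1346 CPM. Of 17 measured transcription factors and niche genes 1 was lower, Cebpa with 101 and 156 CPM, and 0 were higher. Among all measured genes 3.91% were past 1.5-fold lower and 4.33% higher. Nr1h3, the oxysterol receptor of Kupffer cells, had 1022 and 909.6 CPM.

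Iron and haem genes showed no common direction. Of 34 listed genes 17 were measured, with a median log2 ratio of 0.16. Aco1 was past 1.5-fold higher and Hfe past 1.5-fold lower, where 4.33% and 3.91% of all measured genes were. Aco1, whose protein senses iron, had 104 and 64.9 CPM in Marco-only and other barcodes (ratio 1.61, 1.019 to 2.46). Hfe, a regulator of iron sensing, had 142 and 234 CPM (ratio 0.605, 0.422 to 0.847), and 0.621 at matched depths. The ferritin genes Fth1 and Ftl1 had 8179 and 9244 CPM and 10127 and 12426 CPM, with log2 ratios of -0.18 and -0.30. Blvrb, a biliverdin reductase, had 593 and 702 CPM.

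Scavenger and adhesion genes leaned higher without reaching the threshold, which 4.33% of all measured genes passed as higher and 3.91% as lower. None of 9 measured scavenger genes was past 1.5-fold (median log2 ratio 0.20), with Mrc1, the mannose receptor, at 959 and 774 CPM and Cd163, the haemoglobin receptor, at 698 and 607 CPM. At matched depths the ratio of Mrc1 was 1.03 and that of Cd163 1.17. All 7 measured adhesion genes had ratios above 1, with a median log2 ratio of 0.17 and 0 past 1.5-fold. Markers of the KC2 subset of Kupffer cells had a median log2 ratio of 0.31 over 4 measured genes, which was 0.07 at matched depths.

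Lysosomal genes included 24 measured of 29 listed, of which 17 were above and 7 below a ratio of 1 and 0 past 1.5-fold (median log2 ratio 0.10). Lgmn had 5799 and 4229 CPM, the saposin precursor Psap 5840 and 4821 CPM, and Ctsb, a cathepsin, 8448 and 7750 CPM in Marco-only and other barcodes. At matched depths their log2 ratios were 0.11, 0.17 and 0.01. Genes of the NRF2 antioxidant response were level, with 15 measured, 0 past 1.5-fold and a median log2 ratio of 0.03.

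MHC class I and interferon genes were mixed. Of 6 measured class I genes 2 were past 1.5-fold lower and 0 higher. These were the immunoproteasome genes Psmb8 and Psmb9, with 89.6 and 155 CPM and 89.6 and 160 CPM in Marco-only and other barcodes. H2-K1 had 2679 and 2074 CPM. Of 9 measured interferon genes Ifi44 was past 1.5-fold higher (104 and 63.0 CPM) and Irf7 past 1.5-fold lower (104 and 164 CPM). Ifitm3, an antiviral membrane protein, had 750 and 1095 CPM. At matched depths Psmb8 and Psmb9 were no longer past the threshold, with ratios of 0.767 and 0.745.

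Of 8 measured cytokine and chemokine genes Tgfb1 was lower, at 116 and 187 CPM, and its ratio was 1.01 in a second draw of the thinning. Phospholipid transfer protein (Pltp) was the one gene past the threshold among 16 measured genes of cholesterol and lipid handling, with 332 CPM in Marco-only barcodes and 500.3 CPM in the others (ratio 0.664, 0.527 to 0.827). Apoe had 9530 and 11810 CPM. Of 9 measured complement genes 0 were past the threshold and 6 had a ratio below 1, with C1qb, a chain of C1q, at 2146 and 2976 CPM (ratio 0.721). None of 14 genes for uptake of dying cells, 10 of Fc receptors and checkpoints, 8 of alternative activation and 4 of pattern recognition was past 1.5-fold. Of 10 immediate-early and heat-shock genes Zfp36 was lower (70.9 and 120 CPM). For each of these lists the shares over all measured genes were 4.33% higher and 3.91% lower.

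Genes of lipid-associated and monocyte-derived macrophages differed in direction. Of 24 listed genes 5 were measured, with Lgals3, Vim and Capg past 1.5-fold lower (where 3.91% of all measured genes were) and Spp1 past 1.5-fold higher, and a median log2 ratio of -0.63. Lgals3 (galectin-3) had 347 and 537 CPM in Marco-only and other barcodes, and Spp1 (osteopontin, also made by bile ducts) 104 and 60.5 CPM. At matched depths the median was -0.13, the ratios of Lgals3 and Vim were 0.816 and 0.914, and Capg (0.511) alone of the 3 was still past 1.5-fold lower. Cell cycle genes were represented by 3 of 33, with 0 past the threshold, and H2afz had 377 and 477 CPM.

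**Figure D5:**
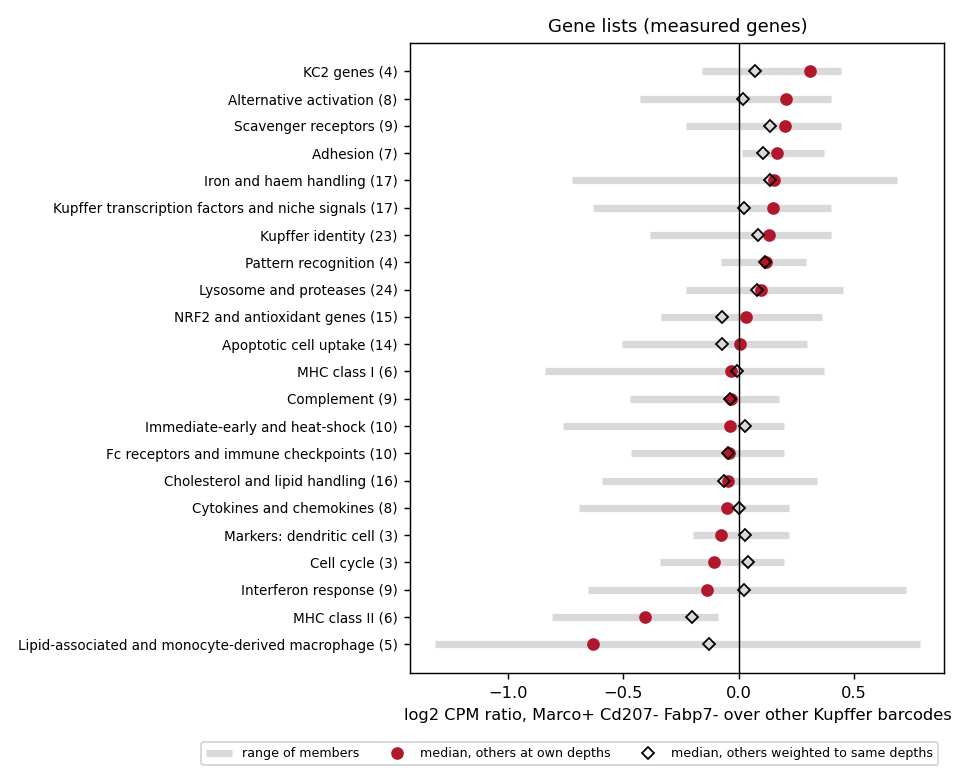
Log2 CPM ratio of Marco-only over other Kupffer barcodes (x axis) for lists with at least 3 measured genes (number in brackets, rows). Grey bars span the lowest and highest gene, filled circles give the median, and diamonds give the median with the others weighted to the members' depths. The MHC class II median is -0.41, and -0.20 at matched depths.

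Markers of other cells were low in the class. T and NK cell markers had 0 UMIs of 6 genes in Marco-only barcodes and 2.55 CPM in the others. Hepatocyte markers summed to 981 and 1075 CPM, sinusoidal endothelium to 216 and 170 CPM with Kdr, Oit3 and Egfl7 at 0 in the members, and monocyte-derived markers to 93.3 and 144 CPM. The hepatocyte list includes Alb and the 6 hepatocyte genes of the rule. The monocyte-derived list includes Gpnmb, Mmp12, Itgax and H2-M2. The sums of these 2 lists are thus in part set by how the barcodes were chosen. Cholangiocyte markers summed to 108 and 66.2 CPM, nearly all of it Spp1, with Krt19, Krt7 and Sox9 at 0 in the members. Neutrophil markers summed to 78.4 and 96.8 CPM, erythroid markers to 239 and 625 CPM, B cell markers to 14.9 and 23.6 CPM, and stellate and fibroblast markers to 3.73 and 23.6 CPM. Without the barcodes that had at least 2 UMIs (before thinning) of any list but the hepatocyte and monocyte-derived ones, 238 Marco-only barcodes remained. With those 2 lists applied as well, 134 remained, and 147 genes were at least 1.5-fold higher and 122 lower.

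Genes were also ranked by their ratio in the barcodes with 2 or more thinned Marco UMIs (912) over those with 0 (506), all with low hepatocyte RNA. This ranks the ratio and not how closely a gene followed Marco. The first 5 were Saa3 at 147 and 43.5 CPM (ratio 3.38, 2.14 to 5.57), Mff at 109 and 55.3 CPM (1.96), Esd at 112 and 59.3 CPM (1.89), Golga7 at 103 and 57.3 CPM (1.80) and Ap1s1 at 110 and 61.3 CPM (1.79). All 5 were low in level and reached 100 CPM at 2 or more Marco UMIs alone, so the filter admitted them through the group where they were high. In Marco-only over other barcodes their ratios were 1.68, 1.36, 0.887, 0.717 and 1.55, so Esd and Golga7 did not follow the class. Saa3 UMIs lay in 6 Marco-only barcodes and 23 others, and without the member barcode with the most its class ratio was 1.11. The 7 members with at least 2 thinned UMIs of Saa3 and Fn1 together had 1857 CPM of Marco, against 4839 CPM in the other 261. Among the other Kupffer barcodes the direction was opposite. The 31 that met this condition had 4000 CPM of Marco, against 2891 CPM in the remaining 1540.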

How the data were processed

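Gene expression was measured by 10x 3' v3 single-cell RNA sequencing in 2 libraries. The authors deposited raw UMI counts per gene and barcode (31053 genes). Per the submitters' processing notes these were made with Cell Ranger 3.0.2 on mm10, and Seurat 2.3.0 is named with no role. The sources used here do not give the annotation behind the counts. The libraries had 7271368 UMIs in 256 barcodes (macroscopic) and 12637053 UMIs in 3221 barcodes (early). Gene positions come from GENCODE M21 (mm10), matched by Ensembl identifier.

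From these counts, barcodes that had 1000 UMIs or more, 300 genes, at most 25% mitochondrial UMIs and under 0.5% Alb UMIs were kept. In the early library 656, 104 and 62 barcodes failed in turn, leaving 2399 (median 2973 UMIs). No doublet caller was run; barcodes with 2 or more UMIs of an other-cell list were left out as an alternative. Each barcode was thinned without replacement to 1000 UMIs (seed 1), thinned counts were summed per class, and CPM ratios of Marco-only over other Kupffer barcodes were formed. The early library is 1 sample, so there is no test and no p-value. Intervals are exact Poisson (CPM), exact conditional binomial (ratios) and Clopper-Pearson (shares) at 95%, the limit for a share of 0 is 3 counts of the total, and all cover counting error only. A gene was measured with at least 100 CPM in 1 sum and 20 UMIs in both sums together, and called past 1.5-fold. UMIs are counted once per molecule at the 3' end, so levels were not divided by length. The members, the markers and the 31 gene lists were chosen with earlier results of these data known. Named genes were the markers and genes of the rule, and the 12 highest and 12 lowest of those past 1.5-fold. From each list up to 4 past 1.5-fold with the most UMIs were named (otherwise the 2 with the most UMIs). The 5 genes with the highest ratio at 2 or more over 0 thinned Marco UMIs were also named. Further list members are named for their known role and were chosen after their values were seen. Some genes that the rule names are not reported here. The scripts were tested on simulated data. Python 3.11.15, numpy 2.4.6, scipy 1.17.1, pandas 2.3.3 and matplotlib 3.10.9 were used.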

Additional observations from a re-analysis of the deposited data

How the results depend on the processing

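Marco-only barcodes were compared under other depths, scalings, comparison groups and filters. The number of Marco-only barcodes was 48 at 2000 UMIs, 500 genes and 10% mitochondrial UMIs, 238 without barcodes with markers of other cells (the hepatocyte and monocyte-derived lists not applied), 134 with those lists applied as well, 238 among barcodes under 3000 UMIs and 449 by the rule from 1 of the 2 equal sets of UMIs. The counts of genes higher and lower (72 and 65) were 25 and 35 in unthinned sums, 32 and 33 with equal weight per barcode, 35 and 21 with the rule and the levels from separate sets of UMIs, and 28 and 32 when barcodes in that split also had equal weight. They were 246 and 276 against barcodes without Marco, Cd207 and Fabp7, 442 and 248 with the stricter barcode filter, 147 and 122 without barcodes with markers of any other-cell list, 4807 and 1622 without a filter on low genes, and 2 and 11 at a threshold of 2-fold. Fewer barcodes, and with no filter genes of very few UMIs, enter the larger counts, and the cause of the other changes was not tested. At 12 other settings for each direction the count was within 1.5 times. The Vcam1 ratio was 1.47 with the split UMIs and equal weight.

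Of the named gene ratios 44 crossed 1 under an alternative. Thinned to 2000 UMIs these were Cdk11b 0.704, Bcl2a1b 1.01, Capg 1.04, Ltc4s 1.62, Tgfb1 1.08, Spp1 0.837 and Ap1s1 0.925. With the stricter barcode filter they were Cdk11b 0.717, Ccndbp1 0.846, Nabp1 0.805, Bin2 1.26, Ltc4s 1.14, Spp1 0.647 and Ap1s1 0.798. In another draw they were Tgfb1 1.01 and Zfp36 1.03. In unthinned sums they were Ltc4s 1.78, Zfp36 1.04 and Spp1 0.381. With the split UMIs they were Cct8 0.966, Ltc4s 2.11 and Zfp36 1.86, and with equal weight as well Ltc4s 1.096 and Zfp36 1.11. Against barcodes without Marco, Cd207 and Fabp7 they were Mepce 0.784, Atg2a 0.806, Fn1 0.806, Ranbp1 2.96, Capg 1.48, Cxcl14 1.07, Atp5g1 1.13, Anapc11 1.14, Psmb9 1.29, Irf7 1.07, Tgfb1 1.04 and Spp1 0.327. The globin genes Hbb-bs and Hba-a1 were at 12.5 and 9.54 against barcodes with Cd207, 11.3 and 7.53 under 3000 UMIs, and 1.501 and 1.47 with others weighted to the members' depths, and Hba-a1 was at 1.08 without barcodes with other-cell markers. Saa3 was at 0.418 under 3000 UMIs. The cause was not tested. The ratios of Marco, Vcam1, Slc40a1, Hmox1 and Dmpk are not among those that crossed 1. The depth-weighted, under-3000, equal-weight split, all-lists and Saa3 and Fn1 settings were chosen after seeing the data.

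No paired analysis was possible because each stage has 1 library and the result comes from no test. Leaving out a replicate could not be done for the same reason. Depth limits the class itself: at about 1600 UMIs a missing Cd207 or Fabp7 UMI cannot be told apart from a cell that lacks the RNA.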

Other observations

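A small set of Marco-only barcodes carried other macrophage genes. These 7 barcodes, picked after their values were seen by having at least 2 thinned UMIs of Saa3 and Fn1, were deep, with a median of 9754 UMIs, against 1621 in the other 261 members. Saa3, an acute-phase serum amyloid, stood at 5857 CPM in the 7 barcodes and 0 CPM in the 261. Fn1 stood at 9714 and 26.8 CPM, and Lyz2 at 30571 and 2992 CPM. Retnla, Prg4 and Alox15, which stood at 1571, 1143 and 429 CPM in the 7 barcodes, were at 0 CPM in the 261. The 7 barcodes meet the rule but do not resemble the rest of the class in the Kupffer gene Clec4f or the markers Vcam1 and Slc40a1. Clec4f, Vcam1 and Slc40a1 had 1 UMI each in the 7 barcodes (143 CPM), against 3766, 1912 and 2831 CPM in the 261. Cd74 was at 0 CPM, against 2364 CPM. Marco was at 1857 and 4839 CPM, Vsig4 at 2429 and 3195 CPM and Timd4 at 1286 and 291 CPM. Among the other Kupffer barcodes 31 met the same condition (median 13332 UMIs), with Saa3 at 4452 CPM, Lyz2 at 36226 CPM and Clec4f at 581 CPM. Marco was at 4000 CPM in these 31 and 2891 CPM in the remaining 1540, the opposite direction to the members. No cell type name is given to either set, and the values are a description of chosen barcodes.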
